A study of Danio rerio with 11 samples.

Results

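The genes described here are the 8 transcriptional cyclins and kinases ccnl1a, ccnl1b, cdk11b, ccnt1, cdk9, ccnk, cdk12 and cdk13 of the zebrafish gastrointestinal tract (GIT). They were chosen by name, from a group of genes that had already been seen to move in the comparison of torpid with control fish. All 8 were among the 32520 genes of that comparison's table, and 6 of them were among the 19071 genes of each irradiated comparison. The symbols of ccnl1a, ccnl1b, cdk11b, ccnt1, cdk9 and ccnk came with the deposited tables, whereas cdk12 and cdk13 were named from a table of Ensembl gene names. Values of cdk12 and cdk13 in the irradiated groups were not analysed here.

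Kinases of this kind pair with a cyclin and are known mainly for acting on transcription. The study lists several of these genes under mitosis, as drivers of the cell cycle. CDK9 with cyclin T forms P-TEFb, the kinase that releases RNA polymerase II from its pause shortly after the start of a gene by phosphorylating the polymerase tail, NELF and the SPT5 subunit of DSIF. CDK12 and CDK13 with cyclin K phosphorylate the tail further along the gene, and loss of CDK12 in human cells lowers the expression of long genes, many of them for DNA repair. CDK11 with cyclin L is tied to pre-mRNA splicing. Cyclin L is encoded by the paralogous pair ccnl1a and ccnl1b in zebrafish.

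RNA from the GIT of adult fish of the AB strain was sequenced in 4 groups with 11 samples in all. Torpid fish (18.5-mel, 2 samples) were cooled over several weeks to 18.5 °C and then given 24 µM of melatonin. The study used melatonin to sedate the fish, but in its activity assay melatonin alone did not lower activity significantly. Low temperature did, alone or with melatonin. Irradiated fish (28.5-rad, 3 samples) stayed at 28.5 °C without melatonin and received a whole-body dose that the labels give as 32.64 cGy, delivered under tricaine anaesthesia on separate days. Irradiated torpid fish (18.5-mel-rad, 4 samples) had the low temperature, the melatonin and the same dose. Control fish (28.5-Ctrl, 2 samples) were kept at 28.5 °C with neither. The low temperature and the melatonin always came together in these samples, so their parts cannot be told apart. Melatonin was dissolved in DMSO, and whether the control water received DMSO or control fish received tricaine is not given in the sources used here.

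The authors deposited 1 DESeq2 result per gene and comparison, each treated group against the same 2 samples of 28.5-Ctrl. A result holds the mean of the normalised counts over the fitted libraries (mean expression), the log2 fold change with its standard error (SE), and the p-value with its Benjamini-Hochberg adjusted form (q). No values per sample were used, so the spread between fish enters only through the SE, and intervals are 95% intervals of the log2 fold change, the estimate with a normal margin of its SE. A gene was called differentially expressed (DE) where q was no more than 0.1 and the log2 fold change was 0.58 or more in size. Both limits follow the published methods. Only genes with a q are called tested. Because the samples are bulk tissue, fewer cells of a type and less RNA per cell cannot be told apart.

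Facts of the series that touch these genes concern the tissue and the torpid libraries. Of 12 enterocyte markers, 11 were found in the 18.5-mel table, at mean expressions between 413 and 16585, while 10 ovary and oocyte markers lay between 0 and 44.4. Where given, the log2 fold changes of the ovary and oocyte markers in 18.5-mel ran between 0 and 6.07. Only 2 of these 10 were tested, and 0 were called. The others, the marker at 6.07 among them, had no q and could not be called. Of 8 testis markers, at mean expressions between 0 and 2.97 and log2 fold changes between -0.28 and 7.28 where given, 3 were tested and 0 called. Markers of the exocrine pancreas lay between 1286 and 54275 and those of the liver between 325 and 4217. Over all tested genes of 18.5-mel, 21.3% were raised and 15.8% lowered (DESeq2). Of 11 enterocyte markers tested there, 6 were lowered and 0 raised. Of 10 from the exocrine pancreas 1 was lowered, and of 6 from smooth muscle 3 were lowered and 1 raised. Goblet markers had 2 of 4 raised, and erythrocyte markers 1 of 4 raised and 1 lowered. Leukocyte and striated muscle markers each had 1 of 7 raised. The 9 liver markers had log2 fold changes of -4.57 to -1.45, and 1 of them was lowered. Liver markers were also below 0 in 28.5-rad, at -3.05 to -1.56, and in 18.5-mel-rad, at -2.56 to -1.18, with 0 called in either, and 0 of them had an unadjusted p of at most 0.05 in either. The part of these cell types in the values of the cyclins and kinases was not tested. The labels name 2 sequencing facilities and 2 instruments without assigning samples to them, and the codes of the 18.5-mel samples are of another style than all others, so torpor and a possible batch cannot be told apart. Codes of 28.5-Ctrl hold an F, those of each irradiated group an F or an M, and those of 18.5-mel neither. What these letters mean is not given in the sources used here, and their part was not tested. One read of an 18.5-mel library added 1.20 or 0.340 to the mean expression, as read from 137 and 184 genes that share each of these values. Among genes with a log2 fold change of 0 in that comparison, the commonest values were 0.0304 (188 genes) and 0.0294 (172 genes). One read of an 18.5-mel library thus weighed far more, as in a shallower library, so torpor and low depth cannot be told apart.

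In the comparison of 18.5-mel with 28.5-Ctrl, 6 of the 8 genes were raised and 0 were lowered, and the log2 fold changes of all 8 were above 0. Over all 20117 tested genes, 21.3% were raised and 15.8% were lowered. Since the 8 genes were chosen with this comparison in view, these values describe them and carry no test. Their log2 fold changes ran between 0.93 and 2.48 with a median of 1.38, beside a median of 0.01 and a median absolute value of 1.29 over all tested genes. SEs of the 8 ran between 0.27 and 0.69, with a median of 0.36, against a median SE of 0.85 over all tested genes.

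The cyclin L gene ccnl1b and the kinase gene cdk11b had the largest values among the 8. In the authors' deposited table, ccnl1b (ENSDARG00000012140) had a log2 fold change of 2.48 (SE 0.30, interval 1.88 to 3.07), a 5.57-fold higher level in 18.5-mel than in 28.5-Ctrl, with q = 5.97e-15 by DESeq2. Its mean expression was 153. Its paralog ccnl1a (ENSDARG00000055124) stood at 1.34 (SE 0.53, interval 0.30 to 2.37) and was 2.52-fold higher, with a mean expression of 30.6 and q = 0.0411 in DESeq2. The kinase cdk11b (ENSDARG00000102546) stood at 2.13 (SE 0.32, interval 1.51 to 2.76), a 4.39-fold higher level, with a mean expression of 144 and q = 4.72e-10 in DESeq2. All 3 cyclin L and CDK11 genes were raised, and 18.3% of tested genes were at least as high as ccnl1b, 20.8% as high as cdk11b and 28.0% as high as ccnl1a. The intervals of ccnl1a and ccnl1b overlap, and how reads shared by the paralogs were counted is not given in the sources used here.

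**Figure D1:**
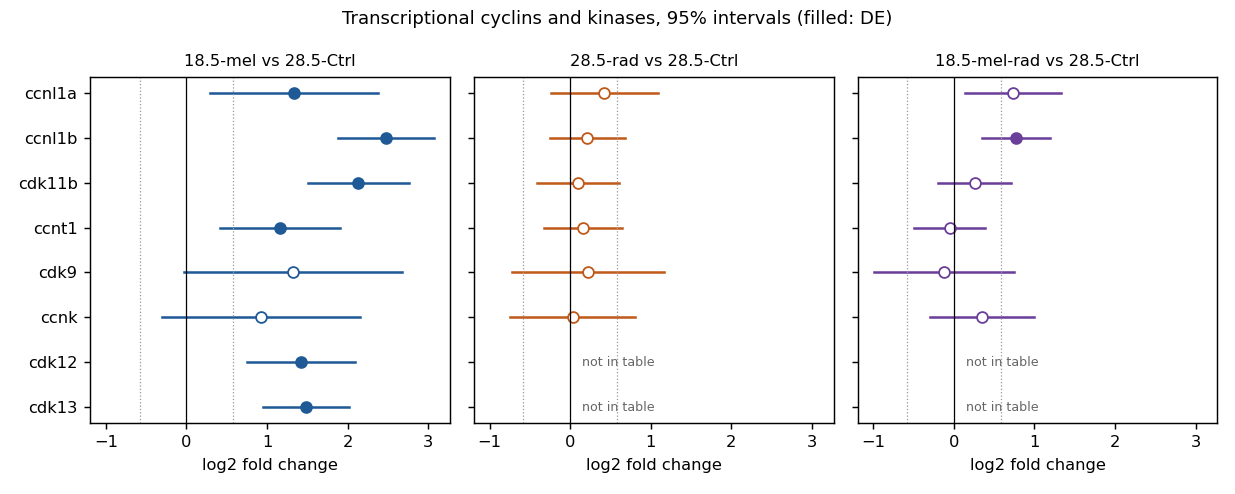
Log2 fold change (x axis) of each of the 8 genes (rows) in 18.5-mel, in 28.5-rad and in 18.5-mel-rad, each against 28.5-Ctrl, from the authors' deposited DESeq2 tables. Points are estimates, lines are 95% intervals, filled points are DE and dotted lines mark a log2 fold change of ±0.58. In 18.5-mel, 6 points are filled and 8 lie above 0, in 28.5-rad 0 are filled, and in 18.5-mel-rad only ccnl1b is filled.

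P-TEFb was represented by ccnt1 and cdk9. Cyclin T1, ccnt1 (ENSDARG00000017525), was raised in 18.5-mel with a log2 fold change of 1.16 (SE 0.38, interval 0.42 to 1.91), 2.24-fold higher than in 28.5-Ctrl, at a mean expression of 53.8 and q = 0.0103 by DESeq2. Its kinase cdk9 (ENSDARG00000044811) had an estimate of similar size, 1.32, but the largest SE of the 8 genes at 0.69. The interval of cdk9 was -0.03 to 2.67 and q was 0.135 by DESeq2, so it was not called. Its mean expression of 20.4 was the lowest of the 8. Even if every read had come from 1 library of 18.5-mel, that mean would stand for at most 17 reads in the shallower library or 59 in the deeper one, against at most 127 or 449 for ccnl1b. The same limits were 25 or 89 for ccnl1a and 44 or 158 for ccnt1, both of which were called.

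Cyclin K was the other gene that missed the call. For ccnk (ENSDARG00000034146) the log2 fold change was 0.93 (SE 0.63, interval -0.30 to 2.15), with a mean expression of 25.8 and q = 0.265 by DESeq2. Both of its kinases were raised. The elongation kinase cdk12 (ENSDARG00000063726) stood at 1.42 (SE 0.34, interval 0.75 to 2.09), 2.68-fold higher in 18.5-mel than in 28.5-Ctrl, at a mean expression of 127 and q = 0.000245 by DESeq2. The closely related cdk13 (ENSDARG00000076791) stood at 1.48 (SE 0.27, interval 0.96 to 2.01), 2.80-fold higher, at a mean expression of 146 and q = 4.50e-07 by DESeq2. In the RefSeq annotation of GRCz12tu, ccnk is the only one of the 8 whose span overlaps another gene, the miRNA gene mir7146.

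Ordered by log2 fold change in 18.5-mel, ccnl1b was followed by cdk11b, cdk13, cdk12, ccnl1a, cdk9, ccnt1 and ccnk. The 95% intervals of all neighbours in this order overlapped, and the interval of ccnl1b itself overlapped that of each other gene. Differences between genes were not tested. The 4 genes with a mean expression over 100, ccnl1b, cdk11b, cdk12 and cdk13, were the 4 that also passed q of at most 0.01. All genes in this order were chosen with this comparison in view, so their place among genes of like abundance is a description and carries no test. The median log2 fold change of the 500 genes nearest in mean expression was between -0.37, for cdk12, and -0.01, for ccnl1a. Of those 500, the share lying below the gene itself ran between 73.6%, for ccnk, and 87.2%, for ccnl1b and cdk11b.

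**Figure D2:**
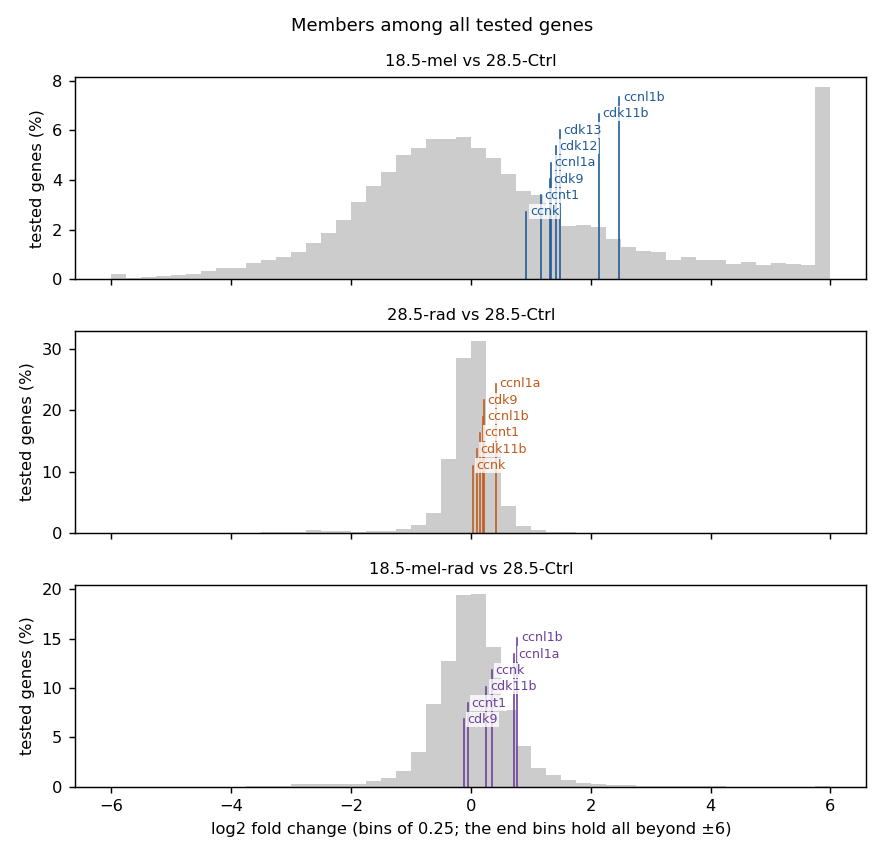
Share of tested genes (y axis, %) by log2 fold change (x axis, bins of 0.25, the end bins holding all values beyond ±6) in 18.5-mel, in 28.5-rad and in 18.5-mel-rad against 28.5-Ctrl, with vertical lines at the values of the 8 or 6 genes in each table. Line heights only separate the names. The 8 lines in 18.5-mel stand between 0.93 and 2.48, right of the median of all tested genes at 0.01, and the lines in the irradiated groups stand between -0.12 and 0.77.

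Irradiation alone, 28.5-rad against 28.5-Ctrl, addressed whether the dose itself moved these genes. Of the 6 genes listed there, 0 were raised and 0 lowered by DESeq2, and 0 had an unadjusted p of at most 0.05. Among the 6844 tested genes, 1.34% were raised and 0.599% lowered, and 678 had an unadjusted p of at most 0.05 in DESeq2. Only ccnl1b, cdk11b and ccnt1 were tested, because the lowest mean expression with a q was 63.1 and the means of ccnl1a, ccnk and cdk9 were 41.8, 33.0 and 25.2. All 6 estimates were above 0 and below the threshold of 0.58, with a median of 0.19.

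Within cyclin L and CDK11, the log2 fold change in 28.5-rad was 0.42 for ccnl1a (SE 0.34, interval -0.24 to 1.09, unadjusted p = 0.212 in DESeq2, no q). It was 0.21 for ccnl1b (SE 0.24, interval -0.25 to 0.68, q = 0.859 in DESeq2) and 0.10 for cdk11b (SE 0.26, interval -0.41 to 0.61, q = 0.961 in DESeq2). For P-TEFb, ccnt1 stood at 0.16 (SE 0.25, interval -0.32 to 0.65, q = 0.915 in DESeq2) and cdk9 at 0.22 (SE 0.48, interval -0.72 to 1.16, unadjusted p = 0.644 in DESeq2). Cyclin K, ccnk, stood at 0.03 (SE 0.40, interval -0.75 to 0.81, unadjusted p = 0.936 in DESeq2). Every one of these intervals holds both 0 and the threshold of 0.58, so neither no change nor an increase of that size is excluded for any of the 6. A decrease of 0.58 lies outside the intervals of ccnl1a, ccnl1b, cdk11b and ccnt1 and inside those of cdk9 and ccnk.

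The combined treatment, 18.5-mel-rad against 28.5-Ctrl, raised 1 of the 6 genes, ccnl1b, and lowered 0 (DESeq2). Here 6.06% of the 12675 tested genes were raised and 5.68% were lowered, and all 6 genes were tested. The log2 fold change of ccnl1b was 0.77 (SE 0.22, interval 0.35 to 1.20), a 1.71-fold higher level in 18.5-mel-rad than in 28.5-Ctrl, with a mean expression of 171 and q = 0.00723 by DESeq2. It was no longer called when a fold change of at least 2 was asked. Its paralog ccnl1a had an estimate of nearly the same size, 0.73 (SE 0.30, interval 0.13 to 1.32), 1.66-fold higher, and fell just outside the call with q = 0.110 by DESeq2. Of the 12675 tested genes, 9.13% were at least as high as ccnl1b and 10.1% at least as high as ccnl1a.

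None of the other 4 genes came near the threshold of the test in 18.5-mel-rad. The kinase of cyclin L, cdk11b, stood at 0.26 (SE 0.23, interval -0.19 to 0.71, q = 0.555 in DESeq2). For cyclin K, ccnk was at 0.35 (SE 0.33, interval -0.30 to 1.0, q = 0.582 in DESeq2). The P-TEFb genes had estimates below 0, with ccnt1 at -0.05 (SE 0.22, interval -0.49 to 0.39, q = 0.926 in DESeq2) and cdk9 at -0.12 (SE 0.44, interval -0.99 to 0.75, q = 0.913 in DESeq2). An increase of 0.58 lies outside the interval of ccnt1 and inside those of cdk11b, ccnk and cdk9.

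Set side by side, ccnl1b stood at 2.48 in 18.5-mel, 0.21 in 28.5-rad and 0.77 in 18.5-mel-rad, and ccnl1a at 1.34, 0.42 and 0.73 in the same groups, all against 28.5-Ctrl. For cdk11b the log2 fold changes were 2.13, 0.10 and 0.26. Those of ccnt1 were 1.16, 0.16 and -0.05, those of cdk9 were 1.32, 0.22 and -0.12, and those of ccnk were 0.93, 0.03 and 0.35. All 3 comparisons share the 2 control samples, so a control value that is off would move every one of them the same way. The estimates of these 6 genes in 18.5-mel-rad were lower than in 18.5-mel, but the difference between those groups was not tested, and they differ in the dose as well as in the library codes.

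Whether irradiated torpid fish differed from irradiated warm fish was tested by setting the log2 fold change of 18.5-mel-rad against that of 28.5-rad, gene by gene, with a two-sided normal test on the authors' DESeq2 estimates. Over 18069 genes, 238 differed at q of at most 0.1, which is 1.32%. Both estimates rest on the same control samples, so this test counts the control variance in each of them and is too wide. By it 0 of the 6 genes differed, and 0 had an unadjusted p of at most 0.05. The largest difference was that of ccnl1b, 0.56 higher in 18.5-mel-rad than in 28.5-rad (SE 0.32, interval -0.07 to 1.19, unadjusted p = 0.0796, q = 0.802, from DESeq2 estimates). With the variance of the shared controls taken out, under equal variance in every library, its interval was 0.18 to 0.94 and its q was 0.0399 from the same DESeq2 estimates. By that form of the test 1 of the 6 genes differed, and 2515 of the 18069 genes did.

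For the other genes the difference of 18.5-mel-rad minus 28.5-rad was 0.31 for ccnl1a (interval -0.59 to 1.20), 0.16 for cdk11b (interval -0.52 to 0.84) and 0.32 for ccnk (interval -0.69 to 1.33). It was below 0 for both P-TEFb genes, at -0.21 for ccnt1 (interval -0.87 to 0.44) and -0.34 for cdk9 (interval -1.63 to 0.94). The median over the 6 genes was 0.23, beside a median of 0.05 over all 18069 genes. These intervals count the control variance in both estimates. They reach beyond 0.58 in at least 1 direction for every gene, so they do not exclude a difference of that size for any of them. With the shared control variance taken out, under equal variance in every library, the interval of cdk11b was -0.253 to 0.575. That interval stayed within 0.58 in both directions, and those of the other genes did not.

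**Figure D3:**
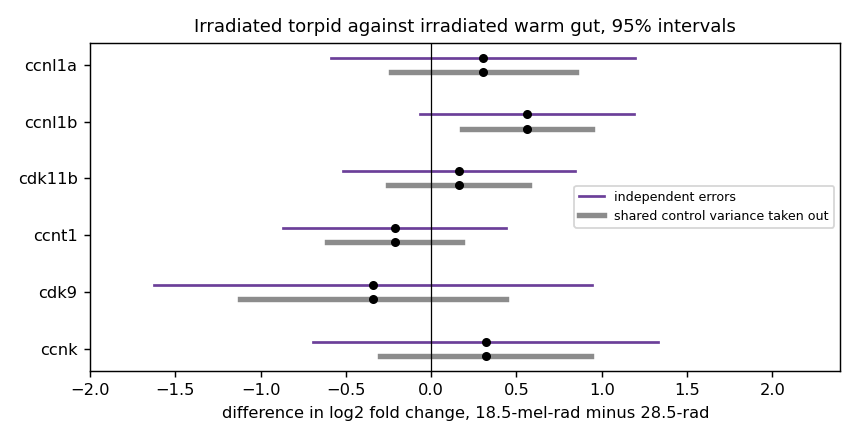
Difference in log2 fold change, 18.5-mel-rad minus 28.5-rad (x axis), for the 6 genes in both irradiated tables (rows). Points are the differences, thin lines are 95% intervals with the errors of both comparisons taken as independent, and thick grey lines are intervals with the shared control variance taken out. All 6 thin lines cross 0, and only the grey line of ccnl1b, 0.18 to 0.94, does not.

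The genes around these kinases were counted from 8 lists of the same machinery. Over all tested genes, 21.3% were raised and 15.8% lowered in 18.5-mel, and 6.06% raised and 5.68% lowered in 18.5-mel-rad. The median log2 fold change of all tested genes was 0.01 in 18.5-mel and 0.02 in 18.5-mel-rad. An unadjusted DESeq2 p of at most 0.05 was held by 2880 of the 12675 tested genes in 18.5-mel-rad. Regulators of P-TEFb, which hold it in an inactive complex, recruit it to chromatin or form the super elongation complex with it, had 11 of 19 tested members raised and 1 lowered in 18.5-mel, with a median log2 fold change of 0.89. Among them eaf1, a partner of the ELL elongation factors, stood at 3.49 (SE 0.85, q = 0.000273 by DESeq2). The splicing factor srsf2b stood at 2.33 (SE 0.43, q = 5.08e-07 by DESeq2), whereas eaf2 was lowered at -2.31 (SE 0.87, q = 0.0312 by DESeq2). In 18.5-mel-rad 2 of 19 were raised and 0 lowered, and among those raised mllt3, a super elongation complex subunit, stood at 1.51 (SE 0.44, q = 0.0124 by DESeq2). The same gene stood at -2.18 (SE 1.54, q = 0.289 by DESeq2) in 18.5-mel and at 1.21 (SE 0.48, no q) in 28.5-rad.

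Pausing and elongation factors of RNA polymerase II, among them the targets of CDK9, had 10 of 17 tested members raised and 1 lowered in 18.5-mel, with a median of 1.03. The NELF subunit nelfa stood at 7.90 (SE 0.67, q = 1.25e-30 by DESeq2), the NELF subunit nelfcd at 4.17 (SE 0.52, q = 1.44e-14 by DESeq2) and leo1 of the PAF1 complex at 3.65 (SE 0.26, q = 2.69e-43 by DESeq2). Mean expression of nelfa was 87.1 in the 18.5-mel table and 5.12 in the 28.5-rad table. The DSIF subunit supt4h1 was lowered at -1.78 (SE 0.81, q = 0.0824 by DESeq2). Of 16 tested in 18.5-mel-rad, 0 were raised or lowered by DESeq2, and 3 had an unadjusted p of at most 0.05.

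The list of other transcriptional cyclins and kinases also holds their partner subunits in TFIIH and Mediator, mnat1 among them. Of its 12 tested members, 4 were raised and 2 lowered in 18.5-mel, with a median of 0.47. The share lowered in this list, partner subunits included, was near the 15.8% of all tested genes. The Mediator kinase cdk8 stood at 2.3 (SE 0.62, q = 0.00129 by DESeq2), while its cyclin ccnc was lowered at -1.52 (SE 0.46, q = 0.00516 by DESeq2). In the kinase module of TFIIH, mnat1 was raised at 1.51 (SE 0.66, q = 0.0665 by DESeq2) and the kinase cdk7 lowered at -1.97 (SE 0.88, q = 0.0734 by DESeq2). Of the cyclin T2 genes, whose product also partners CDK9, ccnt2a was raised at 1.26 (SE 0.21, q = 1.29e-08 by DESeq2) and ccnt2b, named after its values were seen, stood at -0.0016 (SE 0.31, q = 0.999 by DESeq2). In 18.5-mel-rad 0 of 11 were called by DESeq2, and 1 had an unadjusted p of at most 0.05.

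Kinases of SR proteins and CLK kinases, which phosphorylate splicing factors as CDK11 is known to do, had 6 of 14 raised and 0 lowered in 18.5-mel, with a median of 0.95. The leading members were clk2a at 1.64 (SE 0.41, q = 0.000463 by DESeq2), srpk1a at 1.57 (SE 0.45, q = 0.00246 by DESeq2) and clk4a at 1.21 (SE 0.23, q = 1.41e-06 by DESeq2). In 18.5-mel-rad 2 of 14 were raised, srpk1b at 0.68 (SE 0.20, q = 0.0143 by DESeq2) and dyrk1aa at 0.60 (SE 0.15, q = 0.00196 by DESeq2). In 28.5-rad 0 members of any of the 8 lists were called by DESeq2. An unadjusted DESeq2 p of at most 0.05 was seen for 3 of 19 P-TEFb regulators and 1 of 12 other transcriptional cyclins, kinases and partner subunits. It was also seen for 1 of 14 SR protein or CLK kinases, 4 of 26 cell cycle genes and 2 of 7 long DNA repair genes. These counts are over the members listed there, tested or not. Over all 6844 tested genes, 678 had such a p.

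**Figure D4:**
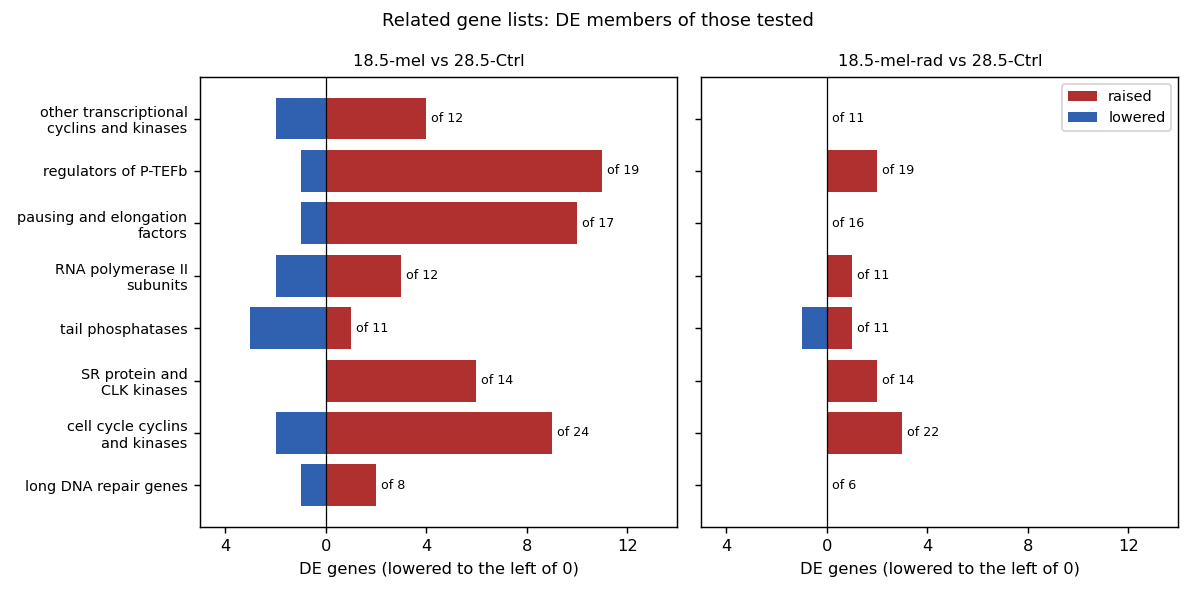
Number of DE genes (x axis, raised to the right of 0 in red and lowered to the left in blue) in 8 lists of related genes (rows) in 18.5-mel and in 18.5-mel-rad against 28.5-Ctrl, with the number tested beside each bar. In 18.5-mel, 11 of 19 P-TEFb regulators and 10 of 17 pausing and elongation factors are raised, and in 18.5-mel-rad 2 of 19 and 0 of 16.

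Genes nearest in pattern were found by the Euclidean distance between their 3 log2 fold changes and the medians of the cyclins and kinases. These medians were 1.38 in 18.5-mel, over 8 genes, and 0.19 in 28.5-rad and 0.31 in 18.5-mel-rad, over 6. Over the same 6 genes the median in 18.5-mel was 1.33. Among 6831 genes tested in all 3 comparisons the nearest were nktr at a distance of 0.0878, rbbp6 at 0.120, abcc3 at 0.123, ipo8 at 0.142 and ncbp3 at 0.144. The first of them, nktr, which encodes a cyclophilin-related protein, stood at 1.34, 0.20 and 0.23 in the same groups.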

How the data were processed

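Per the labels and the study's methods, the authors used FastQC for read quality, Cutadapt for trimming, STAR for alignment (GRCz11), HTSeq for counting and DESeq2 for the comparisons. Versions, strand setting and covariates are not given in the sources used here. The log2 fold changes and their standard errors, and each p-value and adjusted p-value, were computed by the authors and are used as deposited, with the authors' mean of normalised counts. The Wald statistic was used only for a check, since p recomputed from it matched for 100% of genes within 2%. Some genes with a mean above 0 carry a log2 fold change of exactly 0 (2592 in the 18.5-mel table, 720 in 28.5-rad and 413 in 18.5-mel-rad). Symbols came from the deposited tables for 19071 identifiers and from Ensembl gene names for 10159 more.

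The members and lists were chosen with earlier results of these data known. Named genes are the 8 members, up to 3 DE genes per direction of each list, and the 5 nearest in pattern. A gene that this rule names is not reported here. The difference test (two-sided normal, Benjamini-Hochberg, Python 3.11.15, scipy 1.17.1) was tested on simulated data. The simulated differences were far larger than those of the members and lay in genes with small errors, so they do not bear on its power for the members. Alternatives were adjusted p of at most 0.05 and 0.01, no fold threshold, a fold of at least 2, adjustment recomputed over all genes, centring on all genes or on the 500 nearest in mean expression, and, for the difference, a mean of at least 10 and the shared control variance taken out. With no values per sample, depth and precision rest on the deposited standard errors. The labels do not say that samples of a group are separate fish, so p-values measure the spread between these samples, which may be technical.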

Additional observations from a re-analysis of the deposited data

How the results depend on the processing

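The number of called genes kept within 1.5 times its main value in 23 alternatives, and all 40 alternative log2 fold changes of single genes kept their direction and stayed close to the main value. All 40 only subtract a median log2 fold change, between -0.37 and 0.02, so a kept direction says little. For 28.5-rad and for the difference the main value was 0, and 0 again was counted as kept. Stricter thresholds could give nothing but 0 there, so those alternatives say little. The fall from 6 to 4 genes in 18.5-mel lies exactly at the limit of 1.5. In 18.5-mel-rad, asking for a fold change of at least 2 left 0 of the 6 genes called instead of 1. For the difference of 18.5-mel-rad minus 28.5-rad, taking out the shared control variance gave 1 gene, ccnl1b, instead of 0, and 2515 of 18069 genes instead of 238; it assumes equal variance in all libraries. In 18.5-mel, an adjusted p of at most 0.01 left 4 of 8 genes, as did keeping only the 6 genes named in the deposited tables, an alternative chosen after seeing the data. No paired analysis was possible because the tables hold no values per sample, and for the same reason no sample could be left out. In 18.5-mel, cdk9 and ccnk had the lowest mean expressions of the 8 genes and the largest SEs.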

Other observations

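Other genes around RNA polymerase II and the cell cycle were counted in the same tables, in which 21.3% of all tested genes were raised and 15.8% lowered in 18.5-mel, and 6.06% raised and 5.68% lowered in 18.5-mel-rad. In 18.5-mel, 3 of 12 tested subunits of RNA polymerase II were raised against 28.5-Ctrl and 2 lowered, shares near those of all tested genes, with polr2b at a log2 fold change of 2.71, polr2f at 2.05 and polr2eb at 1.82, and polr2gl at -3.18 and polr2d at -2.57 (DESeq2). In 18.5-mel-rad 1 of 11 was raised, polr2c at 0.98. Phosphatases of the polymerase tail and associated subunits had 1 of 11 raised in 18.5-mel, rpap2 at 1.31, and 3 lowered, ctdsp1 at -2.37, ctdsplb at -1.05 and ppp2r1bb at -0.79. In 18.5-mel-rad ssu72 was raised at 0.60 and ctdsp2 lowered at -0.93.

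The list of cell cycle cyclins and kinases also holds inhibitors of these kinases and other regulators. Of its 24 tested members, 9 were raised in 18.5-mel, an inhibitor and a phosphatase among them, and 2 lowered, with a median of 0.74. The cyclins ccnd3 at 7.56 (SE 1.12), ccnb3 at 6.44 (SE 0.89) and ccnb2 at 4.97 (SE 0.79) led those raised (DESeq2). Mean expression of ccnd3 was 30.7 in the 18.5-mel comparison and 1.19 in that of 28.5-rad. For ccnb3 these means were 36.7 and 7.37, and for ccnb2 28.0 and 18.0. The genes cdk5 at -4.85 (SE 1.51) and ccng1 at -2.03 (SE 0.43) were lowered (DESeq2). In 18.5-mel-rad 3 of 22 were raised, ccnb1 at 3.42, ccnb2 at 2.1 and ccna2 at 1.67, and 0 were lowered. Of 8 long DNA repair genes that depend on CDK12 in human cells, 2 were raised in 18.5-mel and 1 lowered. These shares were near those of all tested genes, and the median of the 8 was -0.40. Those raised were fancm at 4.39 and fanci at 3.63, and atm was lowered at -2.64. In 18.5-mel-rad 0 of 6 tested were called by DESeq2 and 0 had an unadjusted p of at most 0.05.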
